A study of Homo sapiens with 3 samples.

Results

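The 9 genes described here encode the inhibitors of cyclin-dependent kinases and the pocket proteins that act with the retinoblastoma protein. They were taken by symbol from the count tables, as 9 of 22497 genes with a symbol: the CIP/KIP inhibitors CDKN1A, CDKN1B and CDKN1C, the INK4 inhibitors CDKN2A, CDKN2B, CDKN2C and CDKN2D, and the pocket proteins RBL1 and RBL2. All 9 were detected. RNA of single cells had been measured in spheroids of CAMA-1, a long-used breast cancer cell line that expresses the estrogen receptor, in 3 libraries: a sensitive monoculture (100% sensitive cells), a coculture (50% sensitive cells) and a resistant monoculture (0% sensitive cells). Each spheroid was started from 2000 cells and grown for 11 days with 1 µM ribociclib, an inhibitor of the kinases CDK4 and CDK6, in DMSO, so no library is free of the drug. The sensitive cells carried the fluorescent transgene mVenus. The resistant cells carried mCherry and descend from the same line after months of growth in ribociclib. They are 1 derived line, and the transgene and the resistance cannot be told apart as sources of a difference between lineages. The deposited annotation splits the cells into 4 populations (the lineages in monoculture and in coculture) and 3 cell cycle phases. With 1 library per condition there were no replicates, no test across samples was run, and every interval below is a 95% interval for counting error only.

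A cell in G1 commits to DNA synthesis when kinases bound to cyclins phosphorylate the retinoblastoma protein and its relatives p107 (RBL1) and p130 (RBL2), which then release the E2F transcription factors. INK4 proteins bind CDK4 and CDK6 and keep cyclin D from joining them. CIP/KIP proteins bind whole complexes of cyclin and kinase, chiefly those of CDK2, and can also ride on cyclin D complexes. RBL2 assembles the DREAM complex that silences cell cycle genes in quiescent cells, while RBL1 is itself a gene that E2F switches on as cells enter S phase.

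Levels are given in counts of unique molecular identifiers (UMIs, each marking 1 captured RNA molecule) scaled to a total of 1000000 UMIs in the same population (CPM). They are not divided by transcript length and are not compared between genes. Sensitive monoculture gave 3329 cells and 96247731 UMIs, sensitive coculture 2059 cells and 70896822 UMIs, resistant coculture 6292 cells and 199632131 UMIs, and resistant monoculture 7557 cells and 270891547 UMIs. Among G1 cells the median cell held 26713 UMIs in sensitive monoculture and 33368 in resistant monoculture, and the median mitochondrial share was 21.2% and 16.7%. Libraries shared 7 to 17 barcodes of kept cells. Within the authors' limits for genes, UMIs and mitochondrial share lay 3329 barcodes of sensitive monoculture, 12346 of the coculture and 7557 of resistant monoculture. The annotation keeps 3329, 8351 and 7557 of them, so only the coculture lost barcodes that met these limits. The part of this selection in ratios of coculture to monoculture was not tested. Checked against markers, the breast label held, with 10 of 10 luminal genes above 10 CPM in every population and a summed level of 11880 to 15142 CPM. The summed level was at most 38.4 CPM for 6 fibroblast genes, 35.3 for 6 basal genes, 2.3 for 5 leukocyte genes and 0.301 for 3 endothelial genes. FABP7, a lipid carrier abundant in the sensitive lineage, stood at 1398 CPM in monocultured and 289 in cocultured sensitive cells, and 14.4 in cocultured and 0.808 in monocultured resistant cells. Resistant cells in coculture thus held 4.99% of the level of their sensitive neighbors. This was taken as a gauge of RNA of sensitive cells, free or from mixed droplets, among resistant cells of that library. Mislabeled cells, or FABP7 made by resistant cells in coculture, would also add to it, and neither was tested. The reverse share, of resistant RNA among sensitive cells, was not measured.

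Promoter sequences are given for genes whose levels are set against the cell cycle phases further on. RefSeq (GRCh38.p14) held windows of 300 bases, 250 before and 50 from the start of transcription, for 8 of the 9 genes at 12 start sites; CDKN1C had no entry. Each was searched on both strands for the E2F letters TTTCCCGC, TTTGGCGC, TTTCGCGC and TTTGCCGC and for the letters of the cell cycle homology region, TTTGAA and TTCGAA. An E2F match was found for RBL1 alone among these genes, and 3.31% of the 35116 promoters in the table hold one. A homology region match was found for RBL2 alone, at the first of its 2 start sites, against 16.4% of all promoters. These promoters are shown with their matches in capitals, followed by that of CDKN2D, which lies higher in S and G2M cells than in G1 cells without any of these letters.
RBL1 (chr20:37095948-37096247, minus strand): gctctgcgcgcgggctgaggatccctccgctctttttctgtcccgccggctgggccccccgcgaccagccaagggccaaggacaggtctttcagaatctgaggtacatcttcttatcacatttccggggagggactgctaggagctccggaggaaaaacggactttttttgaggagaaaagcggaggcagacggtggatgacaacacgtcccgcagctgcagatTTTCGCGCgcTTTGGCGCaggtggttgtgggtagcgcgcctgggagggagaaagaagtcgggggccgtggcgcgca
RBL2 (chr16:53434221-53434520, plus strand): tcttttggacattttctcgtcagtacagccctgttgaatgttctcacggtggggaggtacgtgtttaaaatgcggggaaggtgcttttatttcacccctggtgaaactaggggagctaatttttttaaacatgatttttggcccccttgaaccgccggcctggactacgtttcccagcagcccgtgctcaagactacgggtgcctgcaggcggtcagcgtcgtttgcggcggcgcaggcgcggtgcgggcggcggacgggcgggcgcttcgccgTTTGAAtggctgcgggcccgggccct
CDKN2D (chr19:10568930-10569229, minus strand): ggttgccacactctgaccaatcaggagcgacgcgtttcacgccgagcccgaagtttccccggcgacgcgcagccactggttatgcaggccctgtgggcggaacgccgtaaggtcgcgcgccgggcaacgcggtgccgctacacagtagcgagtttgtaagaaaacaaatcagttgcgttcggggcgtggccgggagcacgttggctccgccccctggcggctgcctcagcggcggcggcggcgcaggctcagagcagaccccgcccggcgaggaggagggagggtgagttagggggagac
In RBL1 the letters TTTCGCGC begin at position -26 and TTTGGCGC at position -16 before the start. They do not overlap, and each alone is in 0.515% and 0.652% of promoters. In RBL2 the letters TTTGAA, which 15.2% of promoters hold, begin at position 24, past the start. The 3 start sites of CDKN2C, the 2 of CDKN2A and the single ones of CDKN1A, CDKN1B and CDKN2B held none. A match is a description of these letters and no proof of binding.

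CDKN1A encodes p21, an inhibitor induced by DNA damage (GRCh37 chr6:36644237-36655114, plus strand). Over all phases its level was 23.6 CPM (22.7 to 24.6) in monocultured and 13.5 (12.7 to 14.4) in cocultured sensitive cells, and 15.2 (14.7 to 15.8) in cocultured and 9.15 (8.79 to 9.52) in monocultured resistant cells. Among G1 cells the same populations held 24.7 (23.6 to 25.8), 14.4 (13.2 to 15.7), 18.6 (17.7 to 19.5) and 10.7 CPM (10.1 to 11.2). No 2 of these 4 intervals overlapped in either set of cells. The order was sensitive monoculture, resistant coculture, sensitive coculture and resistant monoculture, so that both cocultured populations lay between the monocultures. The log2 ratio of resistant to sensitive cells was -1.21 (-1.31 to -1.11) between the G1 cells of the monocultures and 0.37 (0.23 to 0.51) within the coculture. In other words the lineage with more CDKN1A in monoculture had less of it in coculture. Cells with a CDKN1A UMI, after each cell was thinned to 5000 UMIs, made up 11.2% of G1 cells in monocultured and 6.24% in cocultured sensitive cells, and 8.93% in cocultured and 5.10% in monocultured resistant cells (40.7%, 29.3%, 33.3% and 22.9% before thinning, with median depths of 26713 to 33368 UMIs). The shares stood in the same order as the CPM. For scale, FABP7 was found at this depth in 34.4% of sensitive and 4.42% of resistant G1 cells of the coculture, and in 0.37% of G1 cells in resistant monoculture (52.3%, 17.4% and 1.85% before thinning).

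CDKN1B encodes p27, an inhibitor controlled mostly through breakdown of its protein (chr12:12838432-12875303, plus strand). Its G1 level was 20.8 CPM (19.8 to 21.8) in monocultured and 19.1 (17.8 to 20.6) in cocultured sensitive cells, and 19 (18.1 to 19.9) in cocultured and 16.1 (15.4 to 16.8) in monocultured resistant cells. The first 3 intervals overlapped, and resistant monoculture lay below them. None of the 4 comparisons among G1 cells came to 1.5-fold, with log2 ratios from -0.37 to 0.24.

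CDKN1C encodes p57, an imprinted inhibitor known from development (chr11:2904443-2907005, minus strand). It was sparse, with 21 UMIs in monocultured and 47 in cocultured sensitive cells, and 217 in cocultured and 407 in monocultured resistant cells. These come to 0.218 CPM (0.135 to 0.334), 0.663 (0.487 to 0.882), 1.09 (0.947 to 1.24) and 1.5 (1.36 to 1.66). Its log2 ratio of resistant to sensitive cells between the monocultures was 2.78 (2.15 to 3.49), and it was at 0.71 (0.25 to 1.20) in coculture. Among G1 cells these ratios were 2.80 (2.14 to 3.54) and 1.14 (0.47 to 1.89).

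CDKN2A, on chr9:21967751-21995300 (minus strand), encodes both p16, which binds CDK4 and CDK6, and ARF, read in another frame. The transcripts share their 3′ end, so 3′ UMIs do not tell them apart. G1 levels were 58.8 CPM (57.2 to 60.5) in monocultured and 46.7 (44.5 to 49.0) in cocultured sensitive cells, and 24.4 (23.4 to 25.4) in cocultured and 25.3 (24.4 to 26.2) in monocultured resistant cells. The resistant populations overlapped each other and lay well below both sensitive ones. The log2 ratio of resistant to sensitive G1 cells was -1.22 (-1.28 to -1.15) between monocultures and -0.94 (-1.03 to -0.85) in coculture. A UMI of CDKN2A was found, at 5000 UMIs per cell, in 24.4% and 20.4% of sensitive G1 cells (monoculture and coculture) and in 11.4% and 11.9% of resistant ones (coculture and monoculture). Before thinning these shares were 71.2%, 73.4%, 47.9% and 52.1%.

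CDKN2B, its neighbor on the same strand (chr9:22002902-22009304), encodes p15, an inhibitor that TGF-beta induces. G1 levels were 9.94 CPM (9.27 to 10.6) in monocultured and 5.32 (4.6 to 6.11) in cocultured sensitive cells, and 2.34 (2.03 to 2.67) in cocultured and 2.87 (2.58 to 3.18) in monocultured resistant cells. Sensitive monoculture stood above sensitive coculture, and both above the resistant populations, whose intervals overlapped. For resistant over sensitive cells the log2 ratio was -1.79 (-1.97 to -1.61) between the G1 cells of the monocultures and -1.19 (-1.47 to -0.90) in coculture. The antisense RNA CDKN2B-AS1 (chr9:21994138-22128102, plus strand) overlaps the first of the 2 CDKN2A start sites, up to position 21995300, and the whole of CDKN2B. It was listed with 51, 51, 86 and 85 UMIs in the order of populations above. Whether the counting used strand is not given in the sources used here, so reads cannot be told apart with certainty where these genes overlap. The 3′ end of CDKN2A, at position 21967751, lies outside CDKN2B-AS1.

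CDKN2C encodes p18 (chr1:51426417-51440306, plus strand). Its G1 level was 1.44 CPM (1.19 to 1.72) in sensitive monoculture and 1.84 (1.43 to 2.34) in sensitive coculture, against 0.334 (0.227 to 0.474) in resistant coculture and 0.225 (0.151 to 0.324) in resistant monoculture. The lineages separated and the cultures within a lineage overlapped. The log2 ratio of resistant to sensitive cells was -2.67 (-3.31 to -2.08) between the G1 cells of the monocultures and -2.47 (-3.13 to -1.83) within the coculture, on 31 UMIs in resistant coculture and 29 in resistant monoculture. Over the alternatives the G1 ratio of CDKN2C ran from -3.14 to -0.99 between monocultures and from -3.41, with the other lineage's level taken off at the FABP7 share, to -1.09 in coculture. The smallest sizes came with a pseudocount of 1 CPM, which is large beside these levels.

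CDKN2D encodes p19 of the INK4 family (chr19:10677136-10679735, minus strand). G1 levels were 12.9 CPM (12.1 to 13.7) in monocultured and 11.4 (10.4 to 12.6) in cocultured sensitive cells, and 12.6 (11.8 to 13.3) in cocultured and 14.7 (14.1 to 15.4) in monocultured resistant cells. Resistant monoculture lay above the other 3, which overlapped. Its G1 log2 ratios ran from -0.23 to 0.19 in the 4 comparisons. The INK4 genes thus did not differ as a family: CDKN2A, CDKN2B and CDKN2C were lower in the resistant lineage in monoculture and in coculture, and CDKN2D was within 1.5-fold in both.

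RBL1 encodes p107 (chr20:35624752-35724400, minus strand). Over all phases its level was 3.77 CPM (3.39 to 4.18) in monocultured and 8.58 (7.91 to 9.29) in cocultured sensitive cells, and 10.2 (9.72 to 10.6) in cocultured and 8.94 (8.58 to 9.3) in monocultured resistant cells. Among G1 cells the levels were 2.73 (2.39 to 3.11), 3.93 (3.32 to 4.63), 4.70 (4.27 to 5.17) and 3.85 (3.51 to 4.2). Sensitive monoculture lay below the rest in both. S cells made up 5.29%, 22.2%, 25.9% and 28.6% of these populations. The log2 ratio of cocultured to monocultured sensitive cells was 1.19 (1.00 to 1.38) over all cells and 0.53 (0.21 to 0.83) among G1 cells, where it no longer reached 1.5-fold.

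RBL2 encodes p130, the pocket protein of resting cells (chr16:53467889-53525560, plus strand). G1 levels were 29.7 CPM (28.5 to 30.9) in monocultured and 20.7 (19.3 to 22.2) in cocultured sensitive cells, and 23.4 (22.4 to 24.4) in cocultured and 23.0 (22.2 to 23.9) in monocultured resistant cells. Sensitive monoculture held the highest level, and the resistant populations did not differ beyond counting error, with a log2 ratio of 0.02 (-0.06 to 0.10). Cocultured sensitive cells lay below monocultured ones by a log2 ratio of -0.61 (-0.71 to -0.52) over all phases and -0.52 (-0.64 to -0.40) in G1. RBL1 and RBL2 thus differed in opposite directions in the sensitive lineage.

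**Figure D1:**
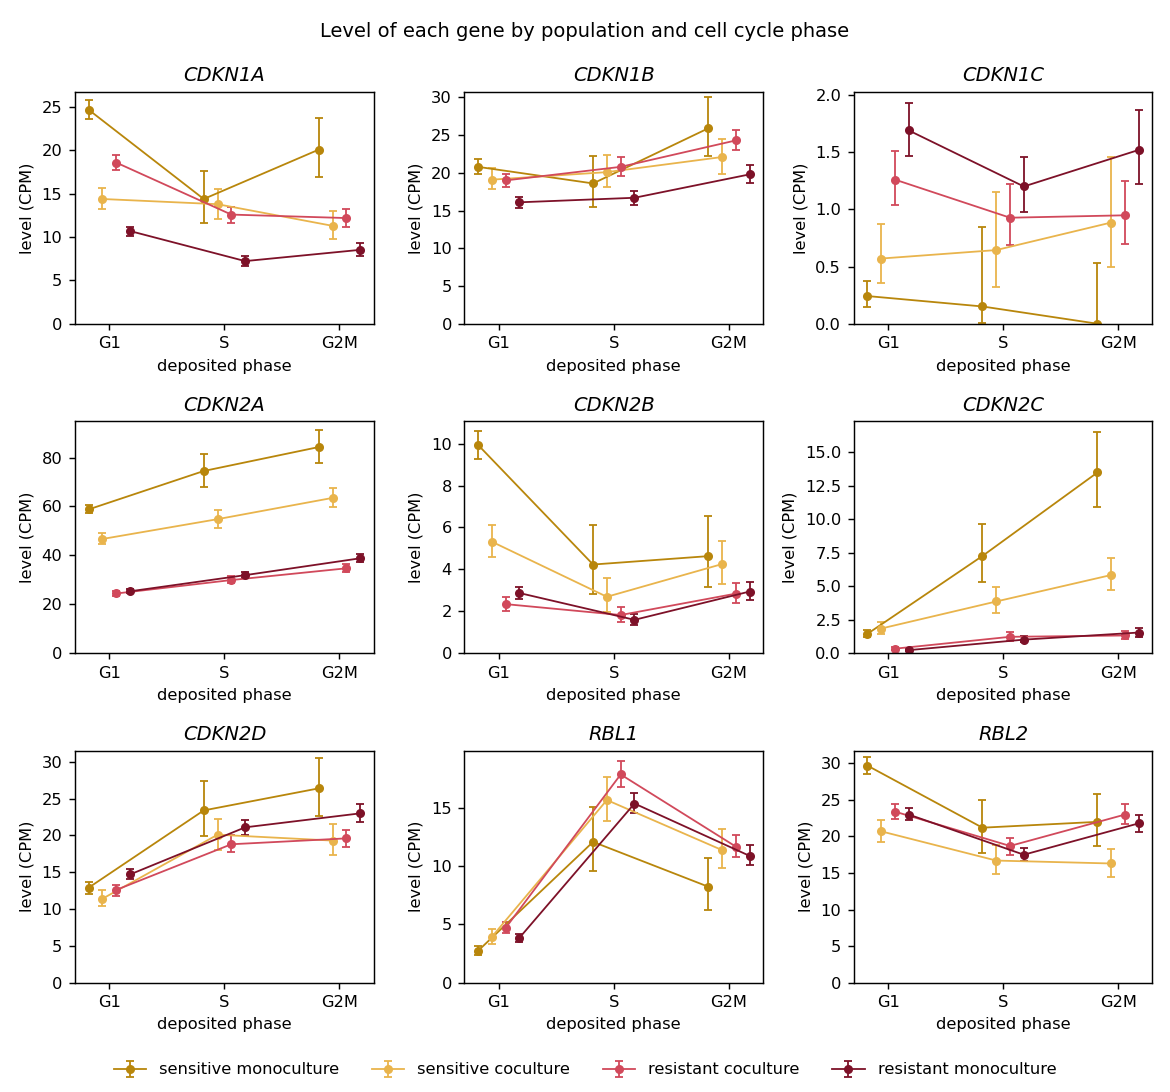
Level of each gene in CPM (y axis, linear, from 0) in G1, S and G2M cells (x axis) of the 4 populations, with 95% counting intervals (1 library per condition). RBL1 peaked in S cells in every population, from 12.1 to 17.9 CPM, and CDKN2A and CDKN2C stood higher in the sensitive populations than in the resistant ones in each phase.

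The deposited phases were called by the authors with Seurat, and the gene lists they used are not given in the sources used here. Seurat's default lists of 43 S and 54 G2M genes, as known and not read from the files, hold none of the 9 genes. RBL1 stood above its G1 level in the S cells of every population. Its level in S cells was 12.1 CPM (9.59 to 15.1) in monocultured and 15.7 (13.9 to 17.7) in cocultured sensitive cells, and 17.9 (16.8 to 19.1) in cocultured and 15.4 (14.6 to 16.3) in monocultured resistant cells, and the log2 ratio of S to G1 cells was 2.15, 2.0, 1.93 and 2.01. In G2M cells the ratio to G1 was smaller, at 1.60, 1.54, 1.32 and 1.51. The intervals of the 4 ratios of S to G1 overlapped, so no population stood apart in how far RBL1 lay above its own G1 level.

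CDKN2C was lowest in G1 cells. The intervals of its S and G2M levels were apart in sensitive monoculture, with S at 7.26 CPM (5.35 to 9.62), and overlapped in the other 3 populations, where S stood at 3.86 (2.99 to 4.92) in cocultured sensitive cells, and 1.22 (0.944 to 1.55) in cocultured and 1.01 (0.803 to 1.25) in monocultured resistant cells. The G2M level was 13.5 CPM (10.9 to 16.5) in monocultured and 5.84 (4.75 to 7.11) in cocultured sensitive cells, and 1.32 (1.02 to 1.67) in cocultured and 1.54 (1.24 to 1.88) in monocultured resistant cells. Log2 ratios of G2M to G1 were 3.23 (2.82 to 3.63), 1.66 (1.20 to 2.13), 1.98 (1.35 to 2.64) and 2.77 (2.15 to 3.42) in that order. The largest ratio was in sensitive monoculture, where 190 G2M cells gave the 93 UMIs behind it. CDKN2D showed a smaller excess, with log2 ratios of S to G1 of 0.86, 0.81, 0.58 and 0.52 and of G2M to G1 of 1.03, 0.75, 0.64 and 0.65.

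CDKN1A and CDKN2B stood lower in S cells than in G1 cells in most populations. For CDKN1A the log2 ratio of S to G1 was -0.78 (-1.09 to -0.48) in monocultured and -0.06 (-0.29 to 0.16) in cocultured sensitive cells, and -0.56 (-0.69 to -0.43) in cocultured and -0.56 (-0.70 to -0.42) in monocultured resistant cells. Sensitive coculture had no detectable difference at this depth. For CDKN2B it was -1.23 (-1.83 to -0.69), -0.98 (-1.48 to -0.51), -0.36 (-0.72 to -0.01) and -0.85 (-1.15 to -0.56). In G2M against G1 cells CDKN2B stood at -1.10 (-1.66 to -0.59), -0.32 (-0.73 to 0.07), 0.28 (-0.03 to 0.59) and 0.04 (-0.23 to 0.30) in the same order, and CDKN1A between -0.61 and -0.29. CDKN2A stood above its G1 level in both phases, with log2 ratios from 0.23 to 0.34 in S and from 0.44 to 0.62 in G2M. The G2M ratios were 0.21 to 0.36 for CDKN1B and -0.43 to -0.02 for RBL2. In S cells RBL2 lay below its G1 level beyond counting error in every population, with log2 ratios from -0.49 to -0.31.

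A gene was counted as past the threshold where the CPM differed by 1.5-fold or more in either direction and both populations together held at least 50 UMIs. Between S and G1 cells 5 of 8 members were past it in sensitive monoculture, where 20.1% of all genes tested were. For cocultured cells it was 4 of 8 in the sensitive (11.6% of all genes) and 2 of 9 in the resistant lineage (10.9%), and for resistant monoculture 3 of 9 (11.4%). CDKN2C and RBL1 were in each of these counts. The counts in resistant cells moved with the setting. In resistant coculture the count ran from 1 with a minimum of 200 UMIs to 6 with stricter phase calls, and was 4 with mean CPM per cell, where CDKN1A and CDKN2D were added. In resistant monoculture it ran from 1 with cells thinned to 5000 UMIs to 5 with stricter phase calls. RBL1 was in the counts of both resistant populations under each of these settings. CDKN2C had too few UMIs to be counted with thinned cells or the minimum of 200 UMIs. Between G2M and G1 cells the count in the sensitive lineage was 4 of 8 in monoculture (24.6% of all genes) and 3 of 8 in coculture (13.2%), and in the resistant lineage 4 of 9 in coculture (12.7%) and 4 of 9 in monoculture (13.6%). CDKN2C, CDKN2D and RBL1 were in all 4, though in resistant monoculture CDKN2A and CDKN2D dropped out under TMM scaling, which left 2. CDKN2D also fell short of 1.5-fold in resistant coculture under TMM scaling (0.55) and with totals without mitochondrial and ribosomal protein genes (0.58). In sensitive coculture with cells thinned to 5000 UMIs it fell short too, at 0.37. The count there was 1 and held CDKN2A, while RBL1 and CDKN2C had under 50 UMIs and were not counted.

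**Figure D2:**
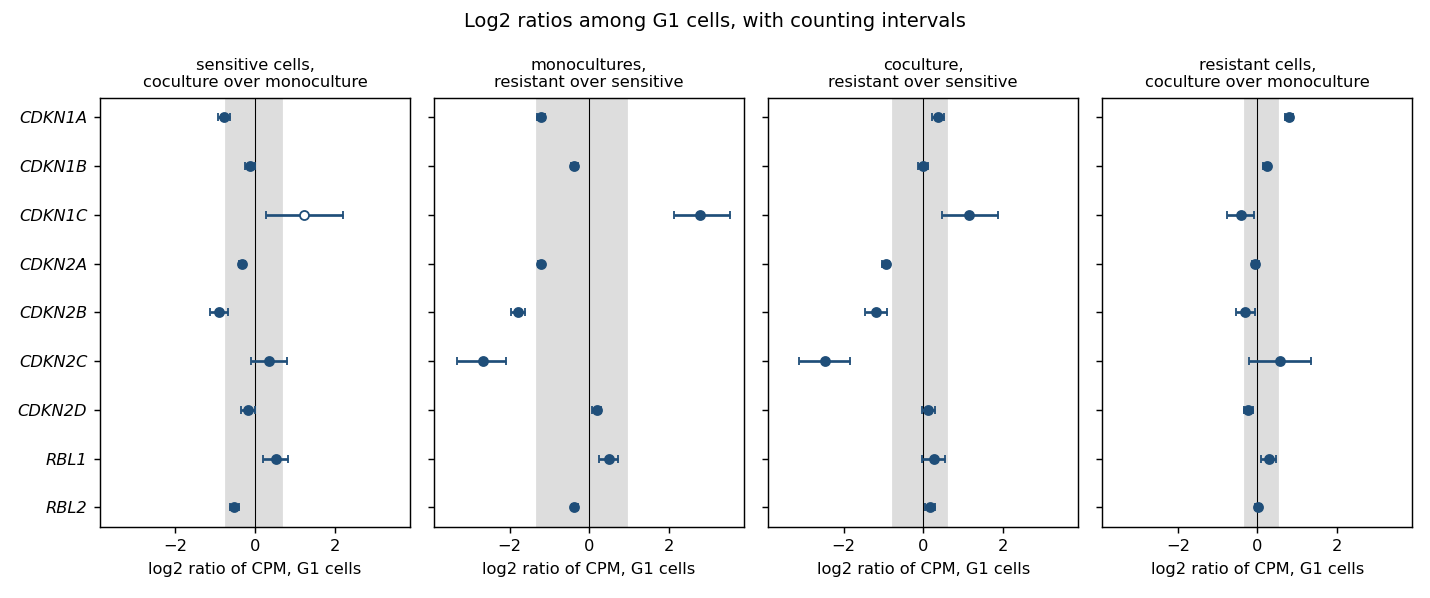
Log2 ratios of CPM among G1 cells (x axis) for the 9 genes in the 4 comparisons, with 95% counting intervals. The gray band holds the middle 90% of all genes with at least 50 UMIs, and the open circle is CDKN1C below that minimum. CDKN2C and CDKN1C lay outside the band on opposite sides in both comparisons of the lineages, and CDKN1A lay outside it on opposite sides in the comparisons of culture.

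Cocultured were set against monocultured sensitive cells to ask which of the 9 genes differ when resistant cells are near. Over all phases 5 of 9 members were past 1.5-fold, where 18.3% of all genes were: CDKN1C (log2 ratio 1.60) and RBL1 (1.19) higher, CDKN1A (-0.81), CDKN2B (-1.05) and RBL2 (-0.61) lower. The calls of CDKN1C and RBL2 did not hold under each alternative. CDKN1C stood at 0.45 with a pseudocount of 1 CPM, and RBL2 at -0.57 with totals without mitochondrial and ribosomal protein genes and -0.58 with at least 2 UMIs of the own transgene. Among G1 cells 2 of 8 remained past it, against 15.1% of all genes, and both were lower: CDKN1A at -0.78 (-0.92 to -0.64) and CDKN2B at -0.90 (-1.13 to -0.68). The median log2 ratio was -0.25 over the 8 members and -0.08 over all 11977 genes. Of all genes tested 6.66% were past it upward and 8.42% downward. CDKN1C had too few UMIs in G1 cells to be counted. With cells thinned to 5000 UMIs the count was 4, with RBL1 and RBL2 beside these genes. With stricter phase calls CDKN1A stood at -0.53, and with at least 2 UMIs of the own transgene CDKN2B stood at -0.55, each short of 1.5-fold. The median G1 cell held 26713 UMIs with a mitochondrial share of 21.2% in monoculture and 31963.5 UMIs with 19.2% in coculture, and the part of these in the ratios was not tested.

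These G1 values mix deposited clusters that the cultures fill differently. In cluster 3, which held 868 cocultured and 227 monocultured sensitive G1 cells, the CDKN1A level was 12.7 against 17.1 CPM, a log2 ratio of -0.43 (-0.73 to -0.12). In cluster 4, with 81 and 1857 cells, CDKN1A stood at 24.5 and 24.4 CPM (0.01, -0.39 to 0.38). CDKN2B differed by -0.12 (-0.65 to 0.44) and -0.19 (-0.98 to 0.51) in the same clusters. Neither gene was past 1.5-fold within either cluster. CDKN2A was past it in cluster 3, lower in coculture at 48.9 against 79.3 CPM (-0.70, -0.84 to -0.55), and CDKN2C stood there at -0.62 (-1.34 to 0.16). In cluster 4 CDKN2D (-0.87, -1.65 to -0.18) and RBL2 (-0.65, -1.11 to -0.22) were past it, both lower in coculture, on 17 and 44 UMIs there. RBL1 was past it in both clusters, higher at 0.91 (0.13 to 1.79) and 0.72 (-0.26 to 1.56), with intervals that reach well below 1.5-fold. The clusters were made by the authors from these cells' own RNA, so these values are a description. The share of all genes past 1.5-fold was not taken within clusters, so these genes cannot be set against it.

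**Figure D3:**
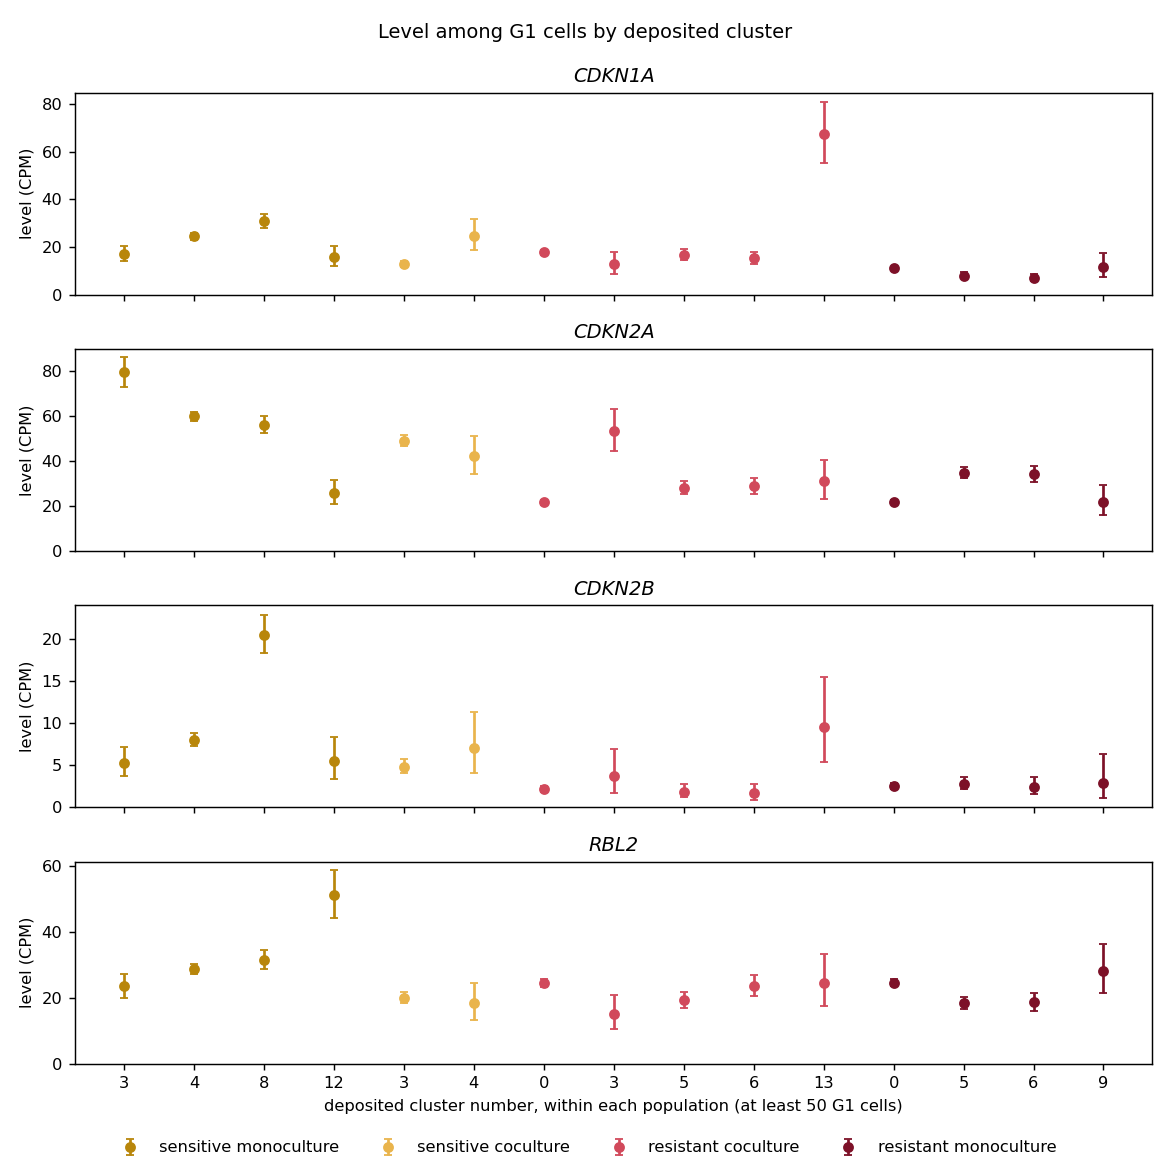
G1 level in CPM (y axes, linear, from 0) of CDKN1A, CDKN2A, CDKN2B and RBL2 in each deposited cluster with at least 50 G1 cells of a population (x axis), with 95% counting intervals. CDKN1A reached 67.3 CPM in cluster 13 of resistant coculture, CDKN2B 20.5 CPM in cluster 8 and RBL2 51.1 CPM in cluster 12 of sensitive monoculture.

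Cluster 8, with 679 G1 cells of sensitive monoculture, had the highest CDKN2B level of the clusters with at least 50 G1 cells, at 20.5 CPM (18.3 to 22.9), and CDKN1A at 30.7 (28 to 33.7). The median cell there held 21419 UMIs against 29186 in cluster 4, and the part of depth in these levels was not tested. Cluster 12, with 155 cells of the same population, joined a low CDKN2A level of 25.7 CPM (20.9 to 31.3) to a high RBL2 level of 51.1 (44.2 to 58.8), where cluster 4 had 59.7 and 28.7. CDKN2A, CDKN2B and RBL2 thus had their highest G1 levels in 3 different clusters of sensitive monoculture. In cluster 13, a group of resistant cells, 54 G1 cells of the coculture held CDKN1A at 67.3 CPM (55.4 to 80.9) and CDKN2B at 9.52 (5.44 to 15.5), against 17.9 and 2.16 in cluster 0. The 51 cells of cluster 13 in resistant monoculture, 96.1% of them in G1, held CDKN1A at 35.6 CPM (27.7 to 45.1) and CDKN2B at 13.9 (9.19 to 20.3).

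Between the monocultures 6 of 9 members were past 1.5-fold over all phases, where 30% of all genes were, and 5 of 9 among G1 cells, where 28% were. CDKN1A, CDKN2A, CDKN2B and CDKN2C were lower in the resistant G1 cells (18.5% of all genes were lower) and CDKN1C was higher (9.47% were). The median log2 ratio in G1 was -0.37 over the members and -0.13 over all genes. TMM scaling shifted the median of all genes to 0.01 in G1, and with it the 5 genes stayed past the threshold and RBL1 joined them as a higher gene. With cells thinned to 5000 UMIs the G1 count was 3, without CDKN1C and CDKN2C, and with a minimum of 200 UMIs it was 4, without CDKN2C.

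Within the coculture, where both lineages shared the medium and the library, 4 of 9 members were past 1.5-fold over all phases (13.2% of all genes) and the same 4 among G1 cells (12.7%). CDKN2A, CDKN2B and CDKN2C were lower in resistant cells and CDKN1C was higher. CDKN1A was not among them. The difference of the lineages in CDKN2A, CDKN2B, CDKN2C and CDKN1C was found with and without a shared spheroid. This was so over whole populations and not in each cluster. In cluster 3 of the coculture, 72 resistant G1 cells held CDKN2A at 53.1 CPM (44.3 to 63). The 868 sensitive ones held it at 48.9 (46.4 to 51.5). In cluster 0, with 2122 resistant G1 cells of the coculture, it was 21.6 CPM. CDKN2C stood at 2.86 CPM (1.15 to 5.89), on 7 UMIs, in the 72 resistant cells of cluster 3. It was at 2.03 (1.55 to 2.62) in the sensitive cells there and at 0.189 in cluster 0. Whether those 72 cells were mislabeled or came from mixed droplets was not tested. In resistant monoculture CDKN1C stood at 0.094 CPM, on 1 UMI, in cluster 6 and at 1.77 in cluster 0. For CDKN1C the call in coculture did not hold with a pseudocount of 1 CPM (0.33 over all phases and 0.53 in G1) or, over all phases, with at least 2 UMIs of the own transgene (0.54). The G1 count in coculture was 2, CDKN2A and CDKN2B, with a minimum of 200 UMIs or with cells thinned to 5000 UMIs. CDKN1C and CDKN2C had too few UMIs to be counted under these settings.

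Resistant cells in coculture differed little from those in monoculture. CDKN1A alone was past 1.5-fold of 9 members, both over all phases (4.51% of all genes) and in G1 (4.14%), at log2 ratios of 0.74 (0.66 to 0.81) and 0.80 (0.70 to 0.90). The other 8 lay between -0.42 and 0.57 in G1. The upper end is CDKN2C, which turned to -0.34 with the level of the sensitive cells taken off at the FABP7 share. Within cluster 0, with 2122 cocultured and 2613 monocultured G1 cells, CDKN1A stood at 17.9 against 11.1 CPM, a log2 ratio of 0.69 (0.57 to 0.81). In cluster 5 its level was 16.7 (14.5 to 19) against 8.03 CPM (6.89 to 9.31) and in cluster 6 it was 15.3 (12.8 to 18) against 7.05 (5.54 to 8.84). The difference was present in each of these clusters. Sensitive cells of the same library held 13.5 CPM of CDKN1A over all phases, and with their level taken off at the FABP7 share the log2 ratios were 0.75 over all phases and 0.82 in G1.

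Other genes of the pathway were read from lists of the members' partners, counted among G1 cells as above. Beside each count in cocultured sensitive cells stand 6.66% of all genes higher and 8.42% lower, and an all-gene median of -0.08. Genes outside the rule for named genes are named here because they were counted, after their values were seen. The cyclins and kinases that the inhibitors bind had 3 of 11 genes higher (CCNA2, CCNB1 and CDK1) and 1 lower (CCNH) in cocultured sensitive cells, with a list median of 0.12. CCNA2, the cyclin A of S and G2 phase, stood at 3.63 against 0.882 CPM (log2 ratio 2.04, 1.62 to 2.47), and CDK1, the mitotic kinase, at 17.8 against 8.84 CPM (1.01, 0.86 to 1.17). CDK1 is in the default G2M list, and where the authors used that list its level in cells called G1 is limited by the call. Among partners of RB, E2F and DREAM 2 of 15 were higher and none of these 15 was lower, with a list median of 0.17. MYBL2, an E2F target that pairs with the DREAM core in dividing cells, stood at 30.6 against 8.15 CPM (1.91, 1.77 to 2.05), and LIN37, a DREAM core subunit, at 1.25 against 0.653 CPM (0.93, 0.33 to 1.53). Cells called G1 in sensitive monoculture thus held less of these 4 genes than cells called G1 in coculture.

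Of 13 genes for turnover of the p27 and p21 proteins, DTL alone was past 1.5-fold (list median 0.05), higher at 4.99 against 2.07 CPM (1.27, 0.96 to 1.58). DTL, a gene of the default S list, targets p21 for breakdown. SKP2, which targets p27, stood at 5.59 against 4 CPM (0.48, 0.22 to 0.74). Of 12 genes linked to FOXO and TGF-beta, 2 were lower (list median -0.16), FOXO1 at 1.38 against 2.45 CPM (-0.83, -1.30 to -0.38) and KLF4, a transcription factor that induces CDKN1A, at 4.29 against 6.75 CPM (-0.65, -0.92 to -0.40).

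Between the G1 cells of the monocultures CCNE1, CCNA2 and CCNB1 were higher and CCNE2 and CCNH lower in resistant cells, of 11 cyclins and kinases. CCNE2, like DTL, is in the default S list, and where the authors used that list its level in cells called G1 is limited by the call, here and in the comparison of resistant cells that follows. LIN37 and MYBL2 were higher and LIN54, RBBP4 and DYRK1A lower, of 15 RB, E2F and DREAM partners. These counts stand beside 9.47% of all genes higher and 18.5% lower in this comparison. DTL was higher, of 13 turnover genes. KLF4, of the FOXO and TGF-beta list, was lower at 2.36 against 6.75 CPM (-1.51, -1.72 to -1.31). In the coculture 1 of the 12 FOXO and TGF-beta genes was past 1.5-fold and 0 of the 11, 15 and 13 genes of the other lists given here. Of all genes 5.38% were higher and 7.35% lower. The FOXO and TGF-beta gene past it was FOXO1, higher in resistant cells at 3.21 against 1.38 CPM (1.21, 0.78 to 1.67). In resistant cells, coculture over monoculture, CCNE2 was higher, 1 of 11 cyclins and kinases, and RBBP4 was, 1 of 15 partners, where 3.55% of all genes were higher.

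The pattern of a gene over the 12 groups of population and phase was set against those of 4685 genes whose mean level reached 20 CPM, by Pearson's r of log2(CPM + 1). The 12 points share 3 libraries, so r is a description. For CDKN1A the most alike were SDC1 (0.953), SLC35A3 (0.943) and TFAP2A (0.938). For CDKN2A they were MRPS6 (0.992), SLC4A1AP (0.99) and PITHD1 (0.986), and for CDKN1B RCAN3 (0.954), ARPP19 (0.948) and HP1BP3 (0.945). CDKN2D was most like HRAS (0.984), PSMA3 (0.983) and CMC2 (0.981). RBL2 was most like KIF3A (0.984) and CCDC186 (0.935).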

How the data were processed

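Single cells of CAMA-1 spheroids were measured in 3 libraries with 10X Genomics 3′ chemistry. The authors used Cell Ranger 3.0.2 and the GRCh37 build, and the deposited values are raw UMI counts of each barcode for each gene. Their deposited annotation gives each kept cell's UMI count, S and G2M score (made by the authors with Seurat), mitochondrial percent, phase, cluster and population, and 9 further columns were not used. Rows with no gene symbol, 0.523% to 0.591% of UMIs, and the transgenes were left out. UMIs were summed per population and phase and expressed as CPM, with exact Poisson intervals at 95%. Ratios carry exact conditional binomial intervals and shares of cells Clopper-Pearson intervals, all for counting error only. Where no UMI was found, 3 UMIs were taken as the limit. Genes with at least 50 UMIs over both populations were tested for a difference of 1.5-fold or more. The 9 genes, the lists and the rule for named genes (the 9, and of each list the 2 genes with the largest ratio between cocultured and monocultured sensitive G1 cells) were chosen with earlier results of these data known. Scaling by TMM used edgeR 4.0.16 (R 4.3.3). The authors state that doublets predicted by scrublet at a threshold of 0.25 were removed. Possible doublets were scored again with scrublet (scanpy 1.11.5). Of the 6292 resistant cells in coculture 6025 scored at most 0.25, and of the 3329 cells of sensitive monoculture 3274 did. Cells above 0.25 were kept except in the alternative that drops them. Sums and intervals used scipy 1.17.1 and numpy 2.4.6 under Python 3.11.15. Gene positions are from GENCODE 44 lifted to GRCh37. The ratios were tested on simulated data with counting error alone, where changed genes differed by 2-fold or 4-fold. Of 197 genes changed among 11993 at the depths of sensitive G1 cells, 98.5% were called, and 1.01% of unchanged genes were. Changes nearer 1.5-fold and variation between libraries were not simulated. Alternatives covered cell filters, phase calls, scaling, thinning, the pseudocount, UMI minimum and fold, and 4 were chosen after seeing the data (G1 cells of cluster 0, 3 or 4 alone, and a free RNA correction). Some genes and 1 list of the plan are not reported here.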

Additional observations from a re-analysis of the deposited data

Results flagged for a closer look

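The difference between coculture and monoculture in CDKN1A had opposite signs in the lineages over all cells. Its log2 ratio of coculture to monoculture was -0.81 in sensitive and 0.74 in resistant cells over all phases, and -0.78 and 0.80 among G1 cells. Within clusters of sensitive G1 cells it was -0.43 (-0.73 to -0.12) in cluster 3 and 0.01 (-0.39 to 0.38) in cluster 4, and in cluster 0 of resistant G1 cells it was 0.69. The same levels give a ratio of resistant to sensitive cells of -1.37 between monocultures and 0.18 in coculture over all phases, and -1.21 and 0.37 in G1. CDKN1C stood at 1.60 in sensitive and -0.47 in resistant cells, coculture over monoculture, on 21 UMIs in sensitive monoculture. RBL2 stood at -0.61 and 0.06 in the same comparison, and at -0.44 between monocultures and 0.23 in coculture for resistant over sensitive cells. The value of 0.06 became -0.01 under TMM scaling. With 1 library per condition these differences were not tested, and the pairs share populations, so they are not independent of each other.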

How the results depend on the processing

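Conditions have 1 library each, so intervals cover counting error alone and no paired analysis was possible because no group has a second library. Counts of members past the threshold that differed by over 1.5 times from those reported were these; where no cause is shown by the setting itself, the cause was not tested. For sensitive cells, coculture over monoculture, 5 over all phases became 3 with at least 2 UMIs of the own transgene and 3 at 2-fold, and 2 in G1 became 4 with cells thinned to 5000 UMIs, 0 at 2-fold and 1 with stricter phase calls, where CDKN1A stood at -0.53. CDKN2B stood at -0.55 there with the transgene minimum. CDKN1A was at 0.01 in cluster 4 alone, the only called value that changed sign. Between monocultures 5 in G1 became 3 thinned. The minimum of 50 UMIs was applied to thinned counts as well, so sparse genes could go uncounted there without falling short of 1.5-fold. In coculture 4 became 1 at 2-fold over all phases and 2 in G1 with a minimum of 200 UMIs or thinned. CDKN1C was at 0.33 over all phases and 0.53 in G1 with a pseudocount of 1 CPM. For resistant cells, coculture over monoculture, 1 became 0 at 2-fold in both sets and 2 in G1 with mean CPM per cell. For S over G1, 5 became 3 in sensitive monoculture and 4 became 2 in sensitive coculture at 2-fold. In resistant coculture 2 became 1 with 200 UMIs, 4 with the transgene minimum, scrublet, mean CPM or thinning, and 6 with stricter phases. In resistant monoculture 3 became 1 thinned and 5 with stricter phases. For G2M over G1, 3 became 1 thinned in sensitive coculture, and 4 became 2 at 2-fold in both resistant populations and, in monoculture, under TMM or with totals without mitochondrial and ribosomal protein genes. The share of calls that were higher moved from 38.5% to 50.2% (all phases) and 33.8% to 48.1% (G1) between monocultures and from 84.7% to 72.4% and 85.7% to 74.8% in resistant cells under TMM, and from 44.2% to 54.2% in sensitive G1 cells without mitochondrial and ribosomal protein genes. The free RNA correction changed no count, but CDKN2C in resistant cells, coculture over monoculture, went from 0.14 to -0.10 over all phases and from 0.57 to -0.34 in G1, both short of 1.5-fold. The correction took the FABP7 share in both directions, though the share of resistant RNA among sensitive cells was not measured.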

Other observations

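The count tables also hold barcodes that the deposited annotation leaves out for a mitochondrial share of 30% or more: 4489 in sensitive monoculture, 6172 in coculture and 2187 in resistant monoculture. In CPM of the UMIs that are not mitochondrial, RBL2 stood at 71 (68.2 to 73.9) in these barcodes of sensitive monoculture against 35.8 (34.5 to 37.2) in kept cells, at 54.7 (52.8 to 56.6) against 25.3 (24.6 to 25.9) in coculture and at 53.6 (50.5 to 56.9) against 25.1 (24.5 to 25.8) in resistant monoculture. CDKN2A went the other way, at 46 (43.7 to 48.3) against 77.4 (75.5 to 79.4), 33.3 (31.8 to 34.8) against 41.7 (40.9 to 42.6) and 19.9 (18 to 21.9) against 36.1 (35.3 to 36.9). CDKN1A was higher in the left-out barcodes in each library, at 34.1, 28.8 and 23.1 against 29.6, 17.7 and 10.9. CDKN2B was higher too, at 17.7, 9.37 and 5.76 against 11.5, 3.44 and 2.97. The median left-out barcode held 15588 to 17518 UMIs, and the kept cells of these libraries 27622 to 35443. These values are from barcodes with no lineage or phase in the annotation, and the parts of depth and cell state were not tested.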
